A study of Mus musculus with 54 samples.

Results

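The livers of 9 mice on a high-fat diet held 1 animal, the third Mrps12+/+ mouse, whose acute phase genes stood far above those of the others. Its Saa2 level was 185 times the median of the other 8 livers, its Lcn2 level 140 times and its Saa1 level 89.5 times, whereas Saa3 was only 2.81 times that median and Saa4 1.98 times. In the hearts, whose levels were not used to choose the genes, Lcn2 was the only member without overlap between Mrps12+/+ mice and either mutant. Lcn2 was lower in both mutants, and 3.64% of all tested genes for Mrps12ep/ep and 10.0% for Mrps12ha/ha were likewise lower without overlap. The share for both mutants at once was not counted, and no member passed the test there. Whether the third Mrps12+/+ heart came from the same mouse as that liver is not known. The 10 genes described are the serum amyloid A genes Saa1, Saa2, Saa3 and Saa4, the orosomucoid genes Orm1, Orm2 and Orm3, and Lcn2, Hp and Apcs, out of 54356 genes listed for each tissue. They were picked by name because of their liver levels in that single Mrps12+/+ animal, so every liver value of a member that involves Mrps12+/+ mice is given as a description, with no test. All 10 had a mean normalized count of at least 10 in the liver and 6 did in the heart (Saa1, Saa2, Saa4, Orm1, Lcn2 and Hp).

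In an acute phase response, cytokines such as interleukin-6 and interleukin-1 reach hepatocytes and act through STAT3, NF-kB and C/EBP transcription factors, which raises the output of positive acute phase proteins and lowers that of negative ones such as albumin. The products of the members circulate in plasma. Serum amyloid A proteins travel with high-density lipoprotein, orosomucoids (alpha-1-acid glycoproteins) bind small lipophilic molecules, lipocalin-2 (Lcn2) binds bacterial siderophores and so withholds iron, haptoglobin (Hp) captures free haemoglobin, and serum amyloid P component (Apcs) is the pentraxin that serves as a major acute phase reactant of the mouse.

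MRPS12 is a protein of the small subunit of the mitochondrial ribosome, and the study asked how its error-prone (Mrps12ep/ep) and hyper-accurate (Mrps12ha/ha) forms alter physiology on a fat-rich diet. Bulk RNA of whole hearts and whole livers was sequenced from Mrps12+/+, Mrps12ep/ep and Mrps12ha/ha mice, with 3 mice for each genotype and tissue and 3 technical libraries for each mouse, which the authors pooled into 18 columns. All were male C57BL/6 mice of 20 weeks from litter- and age-matched breeding, and the diet of all groups, the controls included, drew 42% of energy from fat. Both mutations are in the germline and so present in every cell, and the sources used here do not say whether a heart and a liver with the same number came from 1 mouse.

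Read totals recovered from the values ran from 11202947 to 51499054 in the hearts and from 21238042 to 81491455 in the livers. Hepatocyte markers were all present in each liver and cardiomyocyte markers in each heart, but several libraries also held markers of other tissues, whose source was not tested. The summed hepatocyte markers (15 genes) varied from 1797 to 21250 normalized counts among the hearts. In the heart of Mrps12ep/ep mouse 2 they summed to 2710, with Ahsg at 2200 and Alb at 65.5. Skeletal muscle markers (11 genes) summed to 30540 and 39770 in the livers of Mrps12+/+ mice 1 and 2 against 44.5 to 222.4 in the other 7, cardiomyocyte markers (10 genes) summed to 7925 in the liver of Mrps12ha/ha mouse 3 against at most 807 elsewhere, and erythroid markers (7 genes) summed to 1413000 in the heart of Mrps12ha/ha mouse 3 against 91930 to 464600. In whole-tissue RNA, fewer cells of a type and less RNA per cell cannot be told apart.

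The 4 Saa genes lie within 42.3 kb of chromosome 7 (GRCm38), in the order Saa3 (chr7:46711998-46715700, minus strand), Saa4 (chr7:46727998-46732603, minus), Saa1 (chr7:46740497-46742980, minus) and Saa2 (chr7:46751790-46754313, plus). Mrps12 itself is on the same chromosome (chr7:28739641-28741820, minus), 18 Mb away. The 3 Orm genes span 21.3 kb of chromosome 4 on the plus strand, with Orm1 at chr4:63344560-63348163, Orm3 at chr4:63356162-63359511 and Orm2 at chr4:63362449-63365878. Lcn2 (chr2:32384633-32388252), Hp (chr8:109575128-109579172) and Apcs (chr1:172893961-172895041) are single genes, all on the minus strand.

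Members of a cluster are close copies of one another. The coding sequences of Saa1 and Saa2 were identical at 348 of 366 positions (95.1%), while Saa1 shared 79.1% with Saa3 and 69.6% with Saa4, and the Orm genes shared 86.4% to 89.9% with each other. Of all stretches of 31 bases in the Saa1 and Saa2 transcripts, 46.8% and 44.5% also occurred in transcripts of other genes, against 27.5% for Orm1, 34.1% for Orm2, 9.42% for Orm3, 7.44% for Saa3, 1.58% for Saa4 and at most 0.254% for Lcn2, Hp and Apcs. The split of reads between Saa1 and Saa2, and among the Orm genes, is therefore uncertain, and their sums in the liver are given below as well.

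The sequence before the start site was read for the 8 members with an entry in RefSeq (GRCm38.p6), and 7 of them are shown because they range from the genes that differed most between livers to the one that differed least. Each run holds the 250 bases that end just before the RefSeq start site, 5′ to 3′ on the strand of the gene. Capitals mark matches to a C/EBP motif (TTGCNNAA, either strand), to a STAT motif (TTCNNNGAA, its own reverse complement) or to a TATA motif (TATAAA, the strand of the gene only).
Saa1 (chr7:46742981-46743230, minus): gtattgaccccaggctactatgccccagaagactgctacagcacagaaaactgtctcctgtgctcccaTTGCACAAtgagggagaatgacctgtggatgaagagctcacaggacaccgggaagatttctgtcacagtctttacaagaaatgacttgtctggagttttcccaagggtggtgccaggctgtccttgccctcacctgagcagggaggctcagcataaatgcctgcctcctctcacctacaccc
Saa2 (chr7:46751583-46751832, plus): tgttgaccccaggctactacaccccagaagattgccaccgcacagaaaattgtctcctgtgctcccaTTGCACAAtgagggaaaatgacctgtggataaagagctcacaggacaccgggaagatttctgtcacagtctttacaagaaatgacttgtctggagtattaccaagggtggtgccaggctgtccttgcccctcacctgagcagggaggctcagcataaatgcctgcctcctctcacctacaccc
Saa3 (chr7:46715677-46715926, minus): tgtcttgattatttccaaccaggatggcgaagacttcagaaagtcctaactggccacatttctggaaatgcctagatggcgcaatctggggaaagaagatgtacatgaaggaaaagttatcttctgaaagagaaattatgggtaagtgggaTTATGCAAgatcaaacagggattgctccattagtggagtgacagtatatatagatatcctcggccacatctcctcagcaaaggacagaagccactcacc
Saa4 (chr7:46732604-46732853, minus): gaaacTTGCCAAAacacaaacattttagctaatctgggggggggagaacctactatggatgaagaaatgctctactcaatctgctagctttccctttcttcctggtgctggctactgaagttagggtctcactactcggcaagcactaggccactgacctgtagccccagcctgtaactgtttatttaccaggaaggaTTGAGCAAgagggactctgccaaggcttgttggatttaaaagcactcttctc
Orm2 (chr4:63362199-63362448, plus): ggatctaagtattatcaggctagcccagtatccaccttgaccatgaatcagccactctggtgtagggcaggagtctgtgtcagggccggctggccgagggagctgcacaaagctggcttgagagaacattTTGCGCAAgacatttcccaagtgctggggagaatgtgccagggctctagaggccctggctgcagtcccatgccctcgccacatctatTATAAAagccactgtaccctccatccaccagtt
Lcn2 (chr2:32387740-32387989, minus): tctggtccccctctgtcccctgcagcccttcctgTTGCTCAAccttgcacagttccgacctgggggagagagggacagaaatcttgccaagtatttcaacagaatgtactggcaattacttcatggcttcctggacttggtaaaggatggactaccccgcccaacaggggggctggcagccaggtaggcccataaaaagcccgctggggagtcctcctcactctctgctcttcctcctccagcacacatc
Apcs (chr1:172895055-172895304, minus): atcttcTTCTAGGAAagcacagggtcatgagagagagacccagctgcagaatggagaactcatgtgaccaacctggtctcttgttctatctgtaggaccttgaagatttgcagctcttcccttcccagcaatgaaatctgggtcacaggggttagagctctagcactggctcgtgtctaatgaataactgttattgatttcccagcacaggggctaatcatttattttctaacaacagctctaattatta

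The C/EBP letters were in 7 of the 8 windows read, all but Apcs, and in 9.56% of 32851 mouse promoter windows of the same length. In Saa1 and Saa2 the match had the same letters and lay at -182 to -175 and at -183 to -176 from the start site, and these 2 windows were identical at 238 of 249 aligned bases (95.6%). Saa3 carried its match at -99 to -92, and Saa4, the member that differed least, had 2 matches. Apcs alone held the STAT letters (7.02% of all windows), and Orm2 and Orm3 held TATAAA (7.59% of all windows), at -33 to -28 in Orm2. A search for the NF-kB consensus found no match in these 8 windows (3.9% of all windows). The matches are a description of the letters, not of binding.

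In the livers, Lcn2, Saa1, Saa2 and Orm2 differed most. Saa1 had normalized counts of 12127, 3116 and 330947 in Mrps12+/+ mice 1, 2 and 3, of 5175, 4188 and 4474 in the Mrps12ep/ep mice, and of 2828, 2391 and 3208 in the Mrps12ha/ha mice. Saa2, its neighbour and near-copy, had 9623, 1351 and 284501 in the Mrps12+/+ mice, 1587, 1677 and 2619 in the Mrps12ep/ep mice, and 1383, 980.1 and 1496 in the Mrps12ha/ha mice. For both genes the third Mrps12+/+ liver was highest and the first was next, whereas the second lay among the mutant livers. The 2 genes together summed to 615448 in the third Mrps12+/+ liver and to between 3371 and 21749 in the others. Saa2 made up 46.2% of that sum in the third Mrps12+/+ liver and 44.2% in the first, against 23.5% to 36.9% in the remaining 7.

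**Figure D1:**
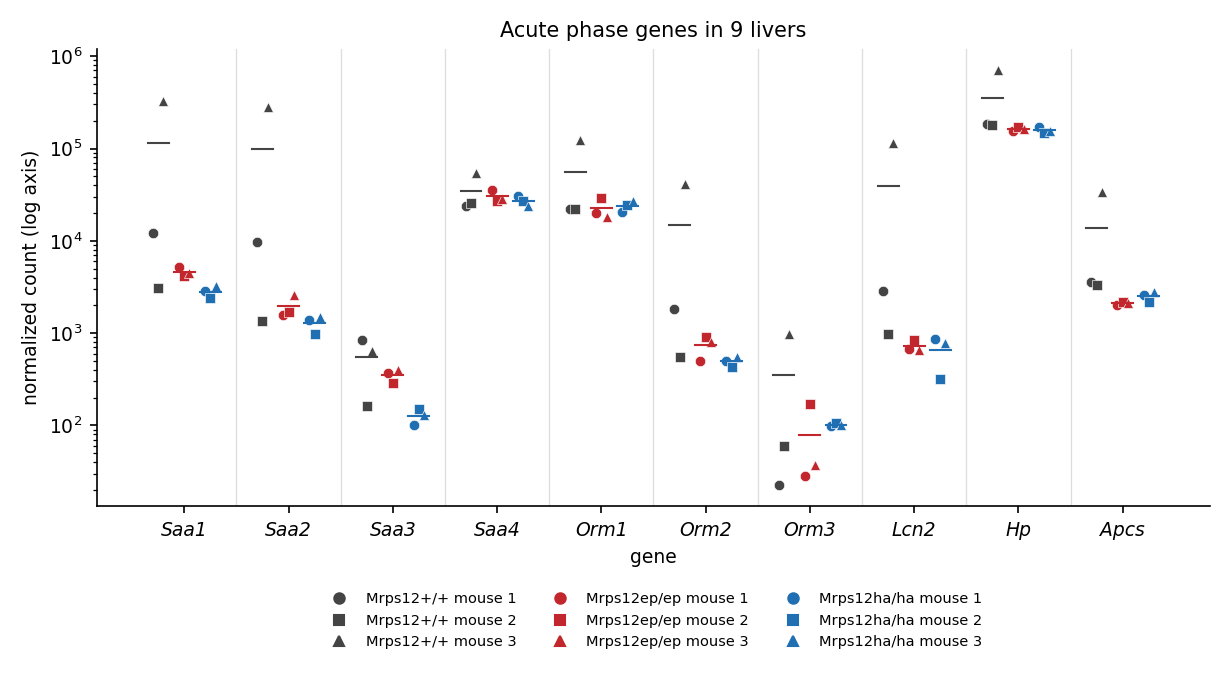
Normalized counts of the 10 members in 9 livers on a log axis, with 1 symbol for each mouse, colours for the genotypes and bars for the group means (n = 3). The third Mrps12+/+ mouse (grey triangle) is highest for every gene but Saa3, and for Saa4 its excess over the next liver is only 1.5-fold.

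Lcn2 followed the same order. Its levels were 2858, 980.9 and 114073 in the Mrps12+/+ livers, 668.7, 842.7 and 661.4 in the Mrps12ep/ep livers, and 861.6, 319.4 and 786.0 in the Mrps12ha/ha livers. The lowest Mrps12+/+ value thus lay above the highest mutant value. Apcs had 3620, 3306 and 34137 normalized counts in the Mrps12+/+ livers, 2033, 2189 and 2140 in the Mrps12ep/ep livers and 2563, 2185 and 2787 in the Mrps12ha/ha livers, again without overlap between the controls and either mutant. Hp had 183182, 177523 and 708327 in the Mrps12+/+ mice against 147818 to 171715 over the 6 mutant mice. Here too the 3 control livers were the 3 highest, but mice 1 and 2 exceeded the top mutant liver only slightly.

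The orosomucoid genes differed from one another. Orm2 had 1823, 555.5 and 41639 normalized counts in the Mrps12+/+ livers, 493.1, 903.4 and 807.9 in the Mrps12ep/ep livers, and 504.6, 434.1 and 550.0 in the Mrps12ha/ha livers. Orm1, the most abundant of the 3, was at 124535 in the third Mrps12+/+ liver and between 17957 and 29445 in the other 8, where the genotypes overlapped. Orm1 accordingly made up 74.5% of the Orm sum in the third Mrps12+/+ liver and 92.3% to 97.9% elsewhere, while Orm2 made up 24.9% there against 1.73% to 7.63%. Orm3, the least abundant, had 22.4, 60.6 and 981.6 normalized counts in the Mrps12+/+ livers, 28.2, 172.7 and 37.7 in the Mrps12ep/ep livers and 97.6, 105.8 and 101.9 in the Mrps12ha/ha livers. It was the only member for which the first Mrps12+/+ liver was the lowest of all 9.

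Saa4 and Saa3 did not share this pattern. Saa4, known as the constitutive serum amyloid A, had 53834 normalized counts in the third Mrps12+/+ liver and 23697 to 35958 in the other 8. Saa3, which macrophages and fat cells make as well as hepatocytes, had 836.1, 162.5 and 637.5 in the Mrps12+/+ livers, 368.5, 291.3 and 401.7 in the Mrps12ep/ep livers, and 102.3, 149.5 and 128.9 in the Mrps12ha/ha livers. It was the 1 member whose highest level was in the first, not the third, Mrps12+/+ liver. Summed macrophage and Kupffer cell markers (12 genes) were also highest in the first Mrps12+/+ liver, at 44240 normalized counts against 16430 to 37770 in the others and with 10 of the 12 genes highest there, and their part in the Saa3 levels was not tested.

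Taking the members as a set, the third Mrps12+/+ liver was the highest of 9 for 9 of 10 genes, and by over 1 on the log2 scale for 8 of 10. Over all 15314 tested genes the shares were 21.9% and 1.31%, and nothing is read from the members' count because they were picked for it. The 10 genes took 3.16% of its reads against 0.37% to 0.548% in the other livers. The gap between this liver and the next highest was 39.9-fold for Lcn2, 29.6-fold for Saa2, 27.3-fold for Saa1, 22.8-fold for Orm2, 9.43-fold for Apcs, 5.68-fold for Orm3, 4.23-fold for Orm1, 3.87-fold for Hp and 1.5-fold for Saa4. The first Mrps12+/+ liver came first or second for 7 of the 10 members. Its excess over the median of the remaining 7 livers was 6.43-fold for Saa2, 5.15-fold for Saa3, 3.78-fold for Saa1, 3.64-fold for Lcn2 and 3.31-fold for Orm2, but only 1.65-fold for Apcs and 1.13-fold for Hp.

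The members also differed in how much they varied without the third Mrps12+/+ liver. Over the other 8 livers the coefficient of variation was 7.59% for Hp, 14.1% for Saa4, 16.6% for Orm1 and 22.7% for Apcs, and between 60.6% and 111% for Orm2, Orm3, Saa1, Lcn2, Saa3 and Saa2. Leaving out the first Mrps12+/+ liver as well brought Saa2 down to 32%, Lcn2 to 29.2%, Orm2 to 29.1% and Saa1 to 27.7%, while Orm3 stayed at 57.1% and Saa3 at 53.4%.

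Per kb of transcript, the order of the median liver levels was Hp (126000 normalized counts per kb), Orm1 (28500), Saa4 (13000), Saa1 (6880), Apcs (2640), Saa2 (2620), Lcn2 (921), Orm2 (717), Saa3 (525) and Orm3 (126). Over the 8 livers other than the third Mrps12+/+ liver, the ranges of Hp and Orm1, of Orm1 and Saa4 and of Saa1 and Apcs did not meet, and those of the other neighbours in this order overlapped. In the third Mrps12+/+ liver the order changed, with Saa1 (543000 per kb) level with Hp (527000), followed by Saa2 (469000), Orm1 (161000) and Lcn2 (125000), and with Saa4 at 25700.

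Against the Mrps12+/+ group, all 10 members had lower mean log2 values in both mutant groups, by -0.09 (Saa4) to -3.25 (Lcn2) in Mrps12ep/ep and by -0.13 (Orm3) to -3.61 (Saa2) in Mrps12ha/ha livers. The control means carried very large SDs, such as 115400 ± 187000 for Saa1 (SD, n = 3) against 4613 ± 508 in Mrps12ep/ep and 2809 ± 409 in Mrps12ha/ha livers. Levels did not overlap, with the mutant lower, for Lcn2, Hp and Apcs in Mrps12ep/ep livers (3 of 10, against 6.28% of all tested genes) and for these 3 with Saa3 and Orm2 in Mrps12ha/ha livers (5 of 10, against 9.81%). Because these contrasts used the livers that chose the genes, the counts are not evidence about the members. Without the third Mrps12+/+ liver the differences shrank, to -1.22 and -1.48 for Lcn2, -0.92 and -1.51 for Saa2 and -0.16 and -0.20 for Hp in Mrps12ep/ep and Mrps12ha/ha livers, those of Saa4 and Orm3 turned positive in both, and Orm1 was at -0.01 and 0.11.

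The third Mrps12+/+ liver was also high in many of the acute phase genes that the choice did not name. Among 31 tested genes of other positive acute phase proteins, 17 lay more than 1 log2 above the median of the other 8 livers and 3 lay more than 1 below it, with a median of 1.11. The median over all tested genes was 0.0033, with 5.24% more than 1 above and 6.39% more than 1 below. The third Mrps12+/+ liver was the highest for 22 genes of this list, and for 21.9% of all tested genes. Of the 3 genes of the list with the highest means, C3, the central complement component, had 604239 normalized counts there against 196238 to 306311 elsewhere, whereas the antitrypsin genes Serpina1c and Serpina1b, which belong to a family of close copies, were below the range of the others (223871 against 427386 to 660813, and 262846 against 307112 to 412588). Named after their values were seen, the serine protease inhibitor gene Serpina3n had 238266 against 22926 to 34875, the leucine-rich glycoprotein gene Lrg1 159871 against 11803 to 22952, the fibrinogen chain gene Fgb 740661 against 141891 to 210802, and the metal-binding metallothionein gene Mt2 59952 against 1283 to 5619. The list did not move as one. Hamp2, a relative of the iron hormone gene Hamp, was at 106.8 there against 1750 to 13337, and Hamp was at 7818, within the 4227 to 32079 of the others.

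Genes of the negative acute phase proteins differed less as a list. Their median in the third Mrps12+/+ liver was -0.20 log2 against the other livers, with 1 of 18 genes more than 1 below and none more than 1 above. Over all tested genes 6.39% lay more than 1 below and 5.24% more than 1 above. The third Mrps12+/+ liver was the lowest for 7 of the 18, and for 19.1% of all tested genes. The gene more than 1 below was Serpina6, which encodes corticosteroid-binding globulin, at 7558 normalized counts against 14123 to 26178. Alb, the albumin gene, had 2890195 normalized counts there against 3373921 to 4510912, while Trf, the transferrin gene, had 643695 against 522109 to 649883 and Apoa1, the main apolipoprotein of high-density lipoprotein, 462494 against 395584 to 579167. Most cytokine genes were not high in this liver. Of the textbook inducers, which the rule for named genes did not pick, Il6 had 0 normalized counts there and 0 to 8.4 in the others, Tnf 4.1 against 4.0 to 44.1, and Il1b 97.8 against 25.3 to 247.5. The 7 tested of 15 cytokine genes had a median of -0.16, with 1 more than 1 log2 above, Clcf1 (182.6 against 34.7 to 126.1). The 3 most abundant of them were at 380.7 against 417.2 to 668.8 (Il18), 246.2 against 239.7 to 334.4 (Ctf1) and 206.3 against 88.0 to 256.8 (Il1a).

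Receptors, signalling genes and feedback targets shifted little as lists, with medians of 0.19 (11 genes), 0.14 (26 genes) and 0.29 (18 genes), but single genes stood out and were named after their values were seen. Il1r1, the signalling receptor of interleukin-1, had 13223 normalized counts in the third Mrps12+/+ liver against 1984 to 2963. Socs3, a feedback inhibitor of the interleukin-6 receptor and a target of STAT3, had 2115 against 217.9 to 477.8. Stat3 itself had 11875 against 4291 to 5894, and Bcl3, an atypical IkB protein, 3268 against 577.0 to 1152. Of the C/EBP genes, Cebpd had 1370.5 against 346.7 to 883.6, and Cebpb was only just the highest, at 5328.6 against 2485.0 to 5198.8. Of the 3 receptor genes with the highest means, Il6st, the shared signalling chain of the interleukin-6 family, had 6634 against 4141 to 5274, while Il1rap (4963 against 6382 to 9107) and Lifr (3161 against 5698 to 9702) were the lowest of all livers. The leading transcription factor genes were within or near the range of the others, with Hnf4a at 38727 (31459 to 41158), Creb3l3 at 21821 (12978 to 19737) and Cebpa at 7653 (8165 to 20126), as were the leading feedback genes Ptpn11 at 2612 (2274 to 2925) and Nfkbia at 1864 (1775 to 2526), whereas Junb was at 4258 (890.3 to 2357). The receptors and clearance proteins of the members' products, among them Cd163, the scavenger receptor of haptoglobin-haemoglobin complexes, had a median of -0.25 (15 genes). The 3 with the highest means were at 45384 against 27224 to 34776 (Lrp1), 6184 against 5648 to 10138 (Scarb1) and 12639 against 2581 to 7855 (Cd36).

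**Figure D2:**
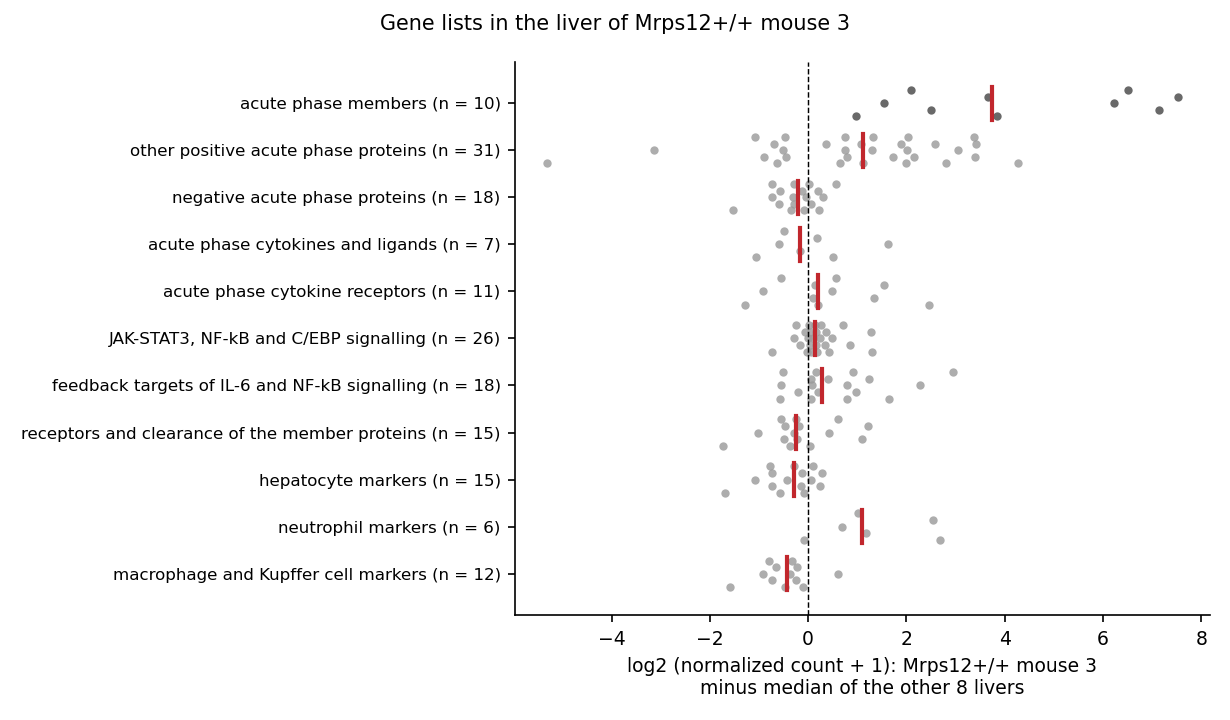
Each point is 1 gene, placed at its log2 normalized count in the liver of Mrps12+/+ mouse 3 minus the median of the other 8 livers. Red bars are list medians and the dashed line is the median of all tested genes (0.0033). The members (median 3.75) were picked for their level in this liver and are shown for reference, and other positive acute phase proteins have a median of 1.11.

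Markers of other cells moved in part with the members. In the third Mrps12+/+ liver 4 of the 6 tested neutrophil markers were more than 1 log2 above the median of the others (5.24% of all tested genes). The 12 markers summed to 475.4 normalized counts there, 659.2 in the first Mrps12+/+ liver and 105.9 to 415.1 in the others. The third Mrps12+/+ liver was the highest for 6 of the 12 and the first for 5. Among those 5 were Mpo (58.8 in the first, 8.2 in the third) and Ngp (59.5 in the first, 0 in the third). Neutrophils hold Lcn2 in their granules, and their cytosolic genes S100a8 and S100a9 were at 56.3 and 103.5 normalized counts in the third Mrps12+/+ liver against at most 44.8 and 65.8 in the others. Macrophage and Kupffer cell markers had a median of -0.43 in that liver, hepatocyte markers one of -0.28, and skeletal muscle markers summed to 61.1. Of 8 tested adipocyte markers 5 were more than 1 log2 above the median of the others (5.24% of all tested genes), Plin1 and Lep among them at few counts. In this liver 2 were highest, the lipid droplet genes Cidec (7770 normalized counts against at most 2474) and Plin4 (15162 against at most 6088). Car3, the most abundant, was the lowest of all livers there, at 55738 against 164574 to 235436. The summed list was lowest there too, at 80380 against 172400 to 238200. The defining genes Adipoq, Plin1 and Lep were at 2.4, 1.6 and 6.5 there and at most 118.1, 110.8 and 203.8 in the others. The part of these cells in the levels of the members was not tested.

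The 10 non-member genes whose liver profile was most like the mean standardized log2 level of the members had Pearson's r of 0.974 to 0.989 over 9 livers. They were Syt12, Serpina10, Lgals3bp, Skap2, Itih4, Tgm2, Tifa, Mvp, Fgl1 and Tmem176a, of which Itih4 and Fgl1 are also on the list of positive acute phase proteins, and 46 of 15304 genes had r over 0.95. The points share the third Mrps12+/+ liver, and over the other 8 livers r was 0.40 (Tifa) to 0.82 (Tgm2). Syt12, a synaptotagmin gene, had 591.1 normalized counts in the third Mrps12+/+ liver, 51.1 in the first and 28.1 to 51.1 over all the others. Tgm2, the tissue transglutaminase gene, had 23423 in the third, 8877 in the first and 5522 to 8877 over the others. For both genes the first Mrps12+/+ liver was the second highest, as it was for Saa1, Saa2, Orm2, Lcn2, Hp and Apcs. Both were picked for their likeness to the members, so nothing is read from this shared rank. Itih4 and Fgl1 did not share it, with 91656 and 14082 in the first Mrps12+/+ liver and up to 122018 and 14582 in the others.

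The comparison of the 2 mutants in the liver set no Mrps12+/+ liver against a mutant one and asked whether the error-prone and hyper-accurate forms differ from each other. Saa1, Saa2 and Saa3 were lower in Mrps12ha/ha livers without overlap, and the other 7 members overlapped. Saa3 was the member furthest apart, with 126.9 ± 23.7 normalized counts (SD, n = 3) in Mrps12ha/ha and 353.8 ± 56.6 in Mrps12ep/ep livers. The log2 difference was -1.48 with a standard error of 0.51 and a limma adjusted p of 0.509 (0.0732 to 0.912 over the alternatives). Saa1 was at 2809 ± 409 against 4613 ± 508 (log2 difference -0.72, standard error 1.31, limma adjusted p = 0.921), and Saa2 at 1286 ± 271 against 1961 ± 572 (-0.59, standard error 1.49, limma adjusted p = 0.945). These standard errors came from a fit over all 9 livers, the third Mrps12+/+ liver included. With only the 6 mutant livers they were 0.13 for Saa1, 0.23 for Saa2 and 0.21 for Saa3, and the limma adjusted p values were 0.116, 0.353 and 0.0732.

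No member was called in this comparison (0 of 10 by limma and by limma-voom on recovered reads, against 0.00653% of all genes), 1 of 10 had an unadjusted limma p under 0.05 (8.62% of all genes), and 3 of 10 did not overlap with Mrps12ha/ha lower (9.01% of all genes). An exact permutation test on each of the 3 gave p = 0.1, the smallest that 3 mice against 3 allow. For the members that overlapped, the 95% intervals of the log2 difference from the fit over 9 livers ran from -0.79 to 0.46 for Saa4, -1.08 to 1.0 for Hp, -1.17 to 1.41 for Orm1, -1.40 to 1.87 for Apcs, -1.86 to 3.51 for Orm3, -3.30 to 2.25 for Orm2 and -3.40 to 2.88 for Lcn2. With only the 6 mutant livers the standard errors of these members were smaller, 0.14 for Saa4 and Hp, 0.19 for Orm1, 0.10 for Apcs, 0.62 for Orm3, 0.23 for Orm2 and 0.35 for Lcn2, and their limma adjusted p values were 0.417 to 0.941. Macrophage and Kupffer cell markers were lower in Mrps12ha/ha livers for 11 of 12 genes, with a median of -0.27 against -0.0017 over all genes, and their part in the Saa3 difference was not tested. None of the 31 other positive acute phase genes passed the limma test, with 25 lower and 6 higher (median -0.14) and 1 at an unadjusted p under 0.05.

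In the heart, members were scarce. Together they took 0.000652% to 0.0103% of the reads, against 0.37% to 3.16% in the livers. Lcn2 had normalized counts of 178.3, 190.3 and 326.4 in Mrps12+/+ mice 1, 2 and 3, of 102.0, 139.8 and 143.5 in the Mrps12ep/ep mice, and of 104.9, 90.6 and 135.5 in the Mrps12ha/ha mice. Every control heart lay above every mutant heart, as 178.3 was the lowest control value and 143.5 the highest mutant value. The log2 difference was -1.03 in Mrps12ha/ha (standard error 0.28, limma adjusted p = 0.191, and 0.0579 to 0.540 over the alternatives) and -0.81 in Mrps12ep/ep (standard error 0.28, limma adjusted p = 1.0). The exact permutation test gave p = 0.1 in both comparisons, the smallest possible. Without the third Mrps12+/+ heart the differences were -0.75 and -0.53. Between the mutants Lcn2 overlapped, with a difference of -0.22 (95% interval -0.84 to 0.40).

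Summed neutrophil markers (12 genes) were 98.2, 302.9 and 605.6 normalized counts in the Mrps12+/+ hearts, 80.3, 276.1 and 99.0 in the Mrps12ep/ep hearts and 185.9, 129.8 and 343.8 in the Mrps12ha/ha hearts. The control heart with the most Lcn2 also had the most of these markers, and the first control heart had fewer than 5 of the 6 mutant hearts. Summed hepatocyte markers were 21250, 6784 and 10160 in the Mrps12+/+ hearts. They were 17020, 2710 and 1797 in the Mrps12ep/ep hearts and 3416, 20700 and 6220 in the Mrps12ha/ha hearts. The third Mrps12+/+ heart was also the highest for 8 of 9 adipocyte markers, with Plin1 at 2893 and Adipoq at 1276.0 normalized counts. The part of these cells in the Lcn2 difference was not tested.

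**Figure D3:**
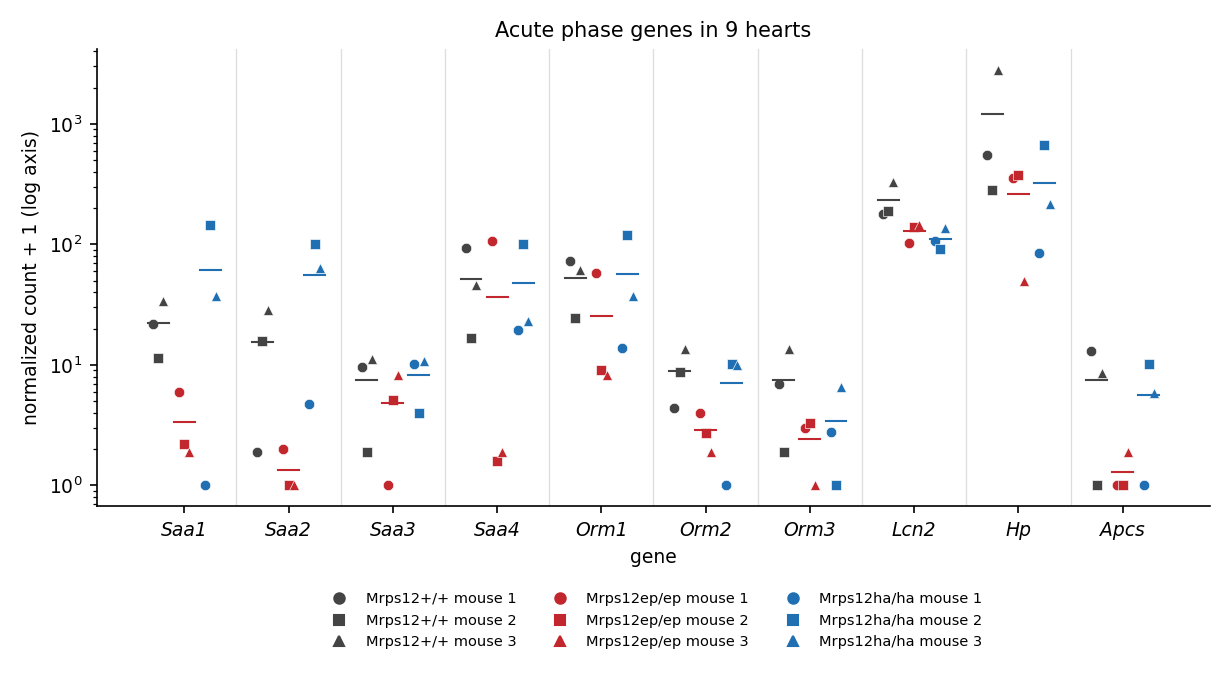
Normalized counts plus 1 of the 10 members in 9 hearts on a log axis, with symbols, colours and bars of means as for the livers (n = 3 for each genotype). Lcn2 is the only member for which all 3 Mrps12+/+ hearts lie above all 6 mutant hearts, between 178.3 and 326.4 against at most 143.5.

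Hp in the heart was led by a single animal. Its levels were 551.1, 283.8 and 2804 in the Mrps12+/+ hearts, 352.7, 376.9 and 49.0 in the Mrps12ep/ep hearts, and 84.7, 670.5 and 217.1 in the Mrps12ha/ha hearts. The third Mrps12+/+ heart was highest and the genotypes overlapped. The log2 differences were -2.01 in Mrps12ep/ep (standard error 1.06, limma adjusted p = 1.0) and -1.71 in Mrps12ha/ha (standard error 1.06, limma adjusted p = 0.359), and without that heart -1.07 and -0.77. Fat cells express Hp, and this is the heart in which 8 of 9 adipocyte markers were highest, whose part in the Hp level was not tested.

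Saa1 and Saa2 had at most 53 and 90 reads in any heart, and at most 5 and 1 in each Mrps12ep/ep heart. Saa2 had 0.9, 14.7 and 27.7 normalized counts in the Mrps12+/+ hearts, 1.0, 0 and 0 in the Mrps12ep/ep hearts, and 3.7, 99.7 and 62.2 in the Mrps12ha/ha hearts. The Mrps12ha/ha hearts all lay above the Mrps12ep/ep hearts, with a log2 difference of 4.62 (standard error 1.30, limma adjusted p = 0.236, and 0.0901 to 0.539 over the alternatives). It rests on 125 reads against 1, a rate ratio of 195 with an exact 95% interval of 34.3 to 7760 that covers counting error only and not the spread between mice. Saa1 had 20.7, 10.4 and 32.7 in the Mrps12+/+ hearts, 5.0, 1.2 and 0.9 in the Mrps12ep/ep hearts, and 0, 145.0 and 36.7 in the Mrps12ha/ha hearts. It was lower in every Mrps12ep/ep heart than in every control heart (log2 difference -2.79, standard error 1.53, limma adjusted p = 1.0), and the Mrps12ha/ha hearts spanned the whole range. Because the split of reads between Saa1 and Saa2 is uncertain, the order of the mutant hearts for Saa2 need not hold for their sum. The remaining members were lower still or overlapped, with Saa4 between 0.6 and 106.0, Orm1 between 7.3 and 117.8, Saa3, Orm2 and Orm3 each at 12.6 or less, and Apcs at 12.1 or less with 0 in 4 hearts.

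No member passed the test in any heart comparison (0 of 6 in each, against 0.0% of all genes for Mrps12ep/ep and 0.0311% for Mrps12ha/ha against controls, and 0.0249% between the mutants). Limma-voom on recovered reads also called 0 members, and limma gave 1 of 6 an unadjusted p under 0.05 in each comparison, where all genes had 1.69%, 19.7% and 17.9%. For Mrps12ep/ep against controls these were 271 genes, Lcn2 among them. Of the 6 tested members 2 did not overlap with Mrps12ep/ep lower (3.64% of all genes; the untested Orm2 did not either, at 0.9 to 3.0 against 3.4 to 12.6 normalized counts), 1 with Mrps12ha/ha lower than the controls (10.0%) and 1 with Mrps12ha/ha higher than Mrps12ep/ep (8.77%). The median log2 difference of the 6 was -2.30, -0.24 and 1.82 in these comparisons, against -0.009, -0.024 and -0.023 over all genes. The 15 hepatocyte markers moved the same way, with 15 of 15 lower in Mrps12ep/ep than in control hearts (median -2.62) and 13 of 15 higher in Mrps12ha/ha than in Mrps12ep/ep hearts (median 2.14), and their part in the differences of Saa1, Saa2, Saa4 and Orm1 was not tested. Of the 30 other positive acute phase genes tested in the heart none passed the limma test, with 25, 26 and 11 lower and with 0, 4 and 2 at an unadjusted p under 0.05. In both tissues the lists of negative acute phase proteins, cytokines, receptors, signalling genes, feedback targets and clearance proteins also held 0 genes that passed the limma test in any comparison. The highest count at an unadjusted p under 0.05 was 9 of 25 signalling genes between the mutant hearts.

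Members were also set against Alb, the main hepatocyte product, within each sample. Alb itself varied from 65.5 to 9895 normalized counts among the hearts. Per 1000 normalized counts of Alb, Saa4 was between 1.58 and 13.7 in the hearts and between 5.25 and 8.12 in the livers other than the third Mrps12+/+ liver, with 7 of 9 hearts above all 8 of these livers. Lcn2 was between 9.17 and 2130 in the hearts and between 0.0857 and 0.733 in those 8 livers, so all 9 hearts were above all 8 livers. Orm1 was above them in all 9 hearts as well (7.23 to 124 against 4.01 to 7.10), and Hp in 8 of 9 (45.6 to 5750 against 34.1 to 52.6). Of the others, 8 of 9 hearts were above for Saa3, 7 for Orm3, 6 for Orm2, 5 for Saa1 and Saa2 and 4 for Apcs. Below all 8 of these livers were 4 hearts for Saa2 and for Apcs, 2 for Orm3 and 1 each for Saa1, Saa3, Saa4 and Orm2. Some hearts counted as above held 1 read of the gene, such as Saa3 in the second Mrps12+/+ and second Mrps12ha/ha hearts. The top values of Lcn2, Orm1 and Hp came from the heart of Mrps12ep/ep mouse 2, which had the fewest Alb counts. Saa1 overlapped between the tissues (0 to 18.3 against 0.64 to 3.11). The third Mrps12+/+ liver, left out of these ranges, was above all 9 hearts for Saa1 (115), Saa2 (98.4), Saa4 (18.6) and Apcs (11.8). For the other members it was within the range of the hearts, with Lcn2 at 39.5, Orm1 at 43.1 and Hp at 245.

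**Figure D4:**
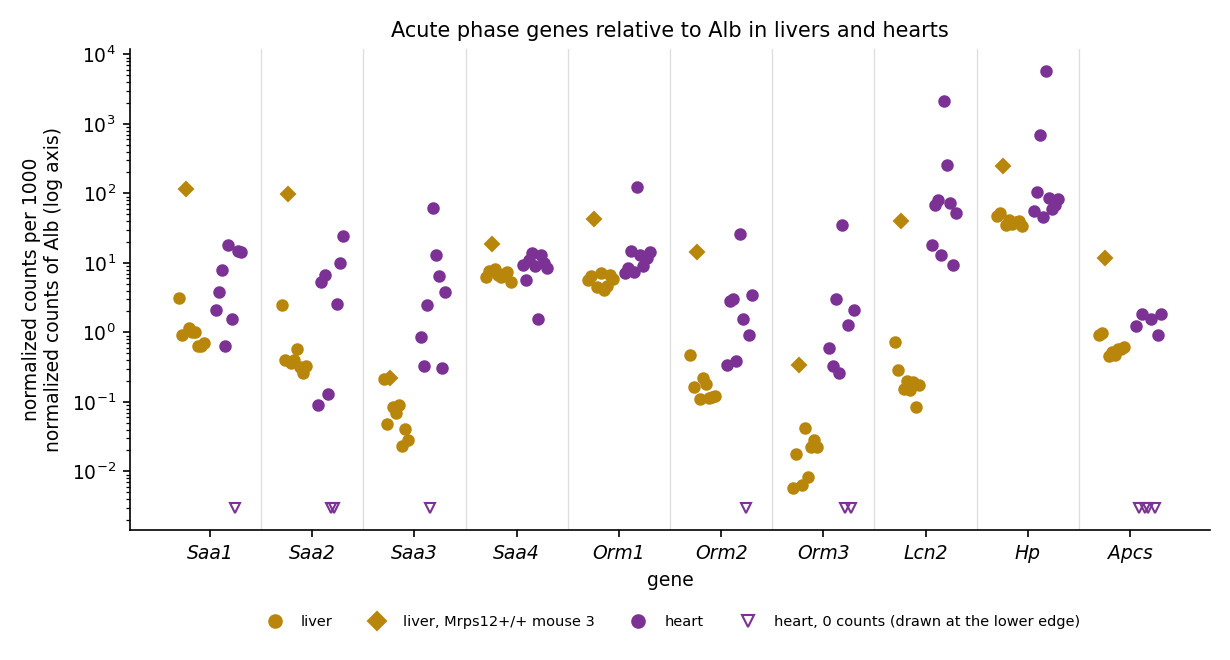
Members per 1000 normalized counts of Alb on a log axis, in 9 livers and 9 hearts; the diamond is the third Mrps12+/+ liver, and open triangles at the lower edge are hearts with 0 counts. For Lcn2 all hearts (9.17 to 2130) lie above the 8 other livers (0.0857 to 0.733), and for Saa4 7 of 9 hearts do.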

How the data were processed

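RNA of hearts and livers was sequenced in 54 libraries, 3 for each mouse, and the authors quantified transcripts with Salmon 1.1.0 after Trim Galore 0.4.1 and cutadapt 1.18 (GRCm38.p6). The authors deposited other values than raw counts, namely DESeq2-normalized counts for each tissue with the libraries of a mouse pooled, so that a whole read is worth 0.58 to 3.02 counts. From the deposited values, log2(count + 1) was fitted with limma 3.58.1 in R 4.3.3 (moderated, trended variance, 3 genotypes in one fit) for genes with a mean of at least 10, and p-values were adjusted by Benjamini-Hochberg over all genes of the tissue. Scripts were tested on simulated data. Exact permutation tests were two-sided. Named genes are all members, list genes with adjusted p under 0.05 or otherwise the 3 with the highest means, and the 10 genes most like the members. The members and all lists were chosen with earlier results of these data known. Intervals cover either counting error, where stated, or the moderated spread within genotypes that limma estimated from all 9 mice of the tissue. Alternatives were other pseudocounts, filters and scalings, a replicate block, fits with 2 genotypes, limma-voom, and leaving out each mouse.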

Additional observations from a re-analysis of the deposited data

Results flagged for a closer look

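Saa2 differed between Mrps12ha/ha and Mrps12ep/ep mice in opposite directions in the 2 tissues. It was higher in every Mrps12ha/ha heart than in every Mrps12ep/ep heart (log2 difference 4.62) and lower in every Mrps12ha/ha liver than in every Mrps12ep/ep liver (-0.59). The difference between the tissues was not tested, and neither value passed the limma test on its own. The heart value rests on 1 read in the Mrps12ep/ep hearts, and the lowest Mrps12ha/ha heart, that of mouse 1, held 2 reads. That heart had 3.7 normalized counts of Saa2 and 0 of Saa1, whereas the heart of Mrps12ep/ep mouse 1 had 1.0 and 5.0. The split of reads between Saa1 and Saa2 is uncertain. For their sum, the first Mrps12ha/ha heart would lie below the first Mrps12ep/ep heart. Hepatocyte markers were higher in Mrps12ha/ha than in Mrps12ep/ep hearts for 13 of 15 genes, with 0 of 15 at an unadjusted limma p under 0.05.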

How the results depend on the processing

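No member passed the test under any alternative in the 3 heart comparisons or between the mutant livers. Counts of all genes called were small and unstable. Called genes in the heart were 0 for Mrps12ep/ep against Mrps12+/+, 5 for Mrps12ha/ha against Mrps12+/+ and 4 between the mutants, and 1 in each liver comparison. For Mrps12ep/ep against Mrps12+/+ hearts the count was 1 with a pseudocount of 0.1 or 8 or with only the 2 genotypes, and 2 with no filter or with limma-voom on recovered reads, which was chosen after seeing the data. For Mrps12ha/ha against Mrps12+/+ hearts limma-voom gave 3. In the livers, Mrps12ep/ep against Mrps12+/+ gave 0 with a pseudocount of 0.1, a mean of at least 50, only the 2 genotypes or limma-voom, and 2 with no filter. Mrps12ha/ha against Mrps12+/+ gave 0 with a pseudocount of 0.1, a mean of at least 50 or limma-voom, and 3 with no filter. Between the mutant livers the fit of only the 2 genotypes gave 18. Leaving out each mouse gave 0 to 1, 3 to 4330 and 3 to 3730 genes in the hearts, the largest counts without Mrps12ha/ha mouse 2, the shallowest library, and 1 to 68 (68 without Mrps12+/+ mouse 3, 26 without mouse 1), 0 to 90 (90 without Mrps12+/+ mouse 2, 76 without mouse 3) and 0 to 11 in the livers. The cause of these shifts was not tested.

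The median log2 excess of the members in the third Mrps12+/+ liver was 2.87 over the highest other liver, 3.75 over the median of the other 8, and, again over the highest, 2.62 after scaling to total reads. For Saa3 this excess was -0.39 against the highest other liver and 1.55 against the median. Directions that turned were those of small differences. In Mrps12ha/ha against Mrps12+/+ hearts, Saa1 was 0.45 with a pseudocount of 8, 0.17 without Mrps12+/+ mouse 3 and 1.87 without Mrps12ha/ha mouse 1 (lowest -1.72). Saa4 was 0.37 without Mrps12+/+ mouse 1, 0.22 without Mrps12ha/ha mouse 1 and 0.10 without Mrps12ha/ha mouse 3 (lowest -0.97), and Orm1 was 0.03 without Mrps12+/+ mouse 1 and 0.49 without Mrps12ha/ha mouse 1 (lowest -1.06). These 3 lowest values came without Mrps12ha/ha mouse 2. Between the mutant hearts Hp was -0.65 without Mrps12ep/ep mouse 3 and -0.46 without Mrps12ha/ha mouse 2 (highest 1.02, without Mrps12ha/ha mouse 1). Between the mutant livers Orm1 was -0.03 without Mrps12ep/ep mouse 3, and without Mrps12ha/ha mouse 2 Lcn2 was 0.19 and Hp 0.01. The other ends of these ranges were 0.33 for Orm1, -0.52 for Lcn2 and -0.1 for Hp. Of the values of single members under the alternatives, 470 were unchanged in direction and call, 14 turned and 10 moved.

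Mice that share a number were not shown to be pairs, since the correlation of their deviations was over 0.1 in 2 of 9 pairs in the heart (-0.231 to 0.578) and 2 of 9 in the liver (-0.133 to 0.164). With the replicate block the count was 3 for Mrps12ha/ha against Mrps12+/+ hearts, 9 and 7 for the mutants against Mrps12+/+ livers and 6 between the mutant livers, and the limma adjusted p was 0.124 for Lcn2 (Mrps12ha/ha against Mrps12+/+ hearts), 0.188 for Saa2 (between mutant hearts) and 0.457 for Saa3 (between mutant livers). The planned count models of edgeR and DESeq2 were not run, and limma-voom on the recovered reads was run in their place. With 3 mice for each group, depth limits the scarce heart members most, as 1 read was worth 3.02 normalized counts in the shallowest heart.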

Other observations

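Hamp2, the hepcidin relative that was lowest in the third Mrps12+/+ liver, also lay apart between the mutants, and was chosen for mention after its values were seen. It had 13337, 6029 and 9384 normalized counts in the Mrps12ep/ep livers and 4220, 3039 and 2237 in the Mrps12ha/ha livers, with no overlap. Serpina1e, an antitrypsin gene that shares reads with close copies, ran from 10477 to 242803 over the 9 livers, with 11350 in the third Mrps12+/+ liver, 12599 in Mrps12ep/ep mouse 2 and 10477 in Mrps12ha/ha mouse 1, so its low livers came from all 3 genotypes.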
